A study of Bos taurus with 12 samples.

Results

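A stretch of bovine chromosome 29 between 42 and 43 Mb (build ARS-UCD1.2) held 203 of the 216,990 cytosines that the authors deposited as differing in DNA methylation between subfertile and fertile dairy cows. The members are all deposited sites that start within those limits. Methylation was measured in whole blood of 12 dairy cows of 1 farm, aged 3 to 8 years, from 1 mL of blood each. The 6 subfertile cows were culled in the year after sampling for reproductive complications that had not been recognised when the blood was taken, and the other 6 were labelled fertile. The labels name no treatment in either group and do not give the age of the cows by group. Whole blood is a mixture of cell types, and since the deposited sites hold no expression values, the tissue was not checked against marker genes. A shift in the mixture and a shift within 1 cell type cannot be told apart in these values.

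Methyl groups sit on cytosines, in mammals mostly where a C is followed by a G (a CpG), and such a pair is normally methylated on both strands. Promoters rich in CpGs are mostly unmethylated and gene bodies mostly methylated. A site that is methylated on 1 of the chromosome copies and bare on the other reads near the middle of the scale. In enzymatic conversion an enzyme pair shields methylated and hydroxymethylated cytosines, another enzyme deaminates the bare ones, and the bare ones are then read as T. A cytosine that is T in the animal's own DNA is therefore read in the same way as an unmethylated one. The genotypes of the cows are not analysed here, and their part in the values below was not tested.

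The authors chose the deposited sites for the group difference in these same cows, and the stretch was picked with that difference known. The group differences are therefore a description and support no inference. The authors' deposited table gives absolute differences of 26.0 to 73.2 percentage points at the 203 sites, with a median of 44.9, where the median over all deposited sites was 34.7. The authors' deposited table gives q-values from 2.02e-19 to 0.00809 there. The subfertile cows had the higher mean at 123 (60.6%) and the lower one at 80, against 52.1% higher over the whole table. The 203 sites stood for 130 CpGs, since 146 of them were the 2 strands of 73 CpGs.

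At 44 sites (21.7%) the groups did not overlap, meaning that every cow of 1 group lay above every cow of the other. The share over all deposited sites was 3.10%. The 44 sites were divided into 13 higher in subfertile cows, where the share over all sites was 1.94%, and 31 lower, where it was 1.16%. Both of these shares are over sites of either direction. Among the higher sites of the stretch alone 10.6% did not overlap, and among the lower ones alone 38.8%. Over the whole table the like counts were 4214 of 113,097 higher and 2512 of 103,893 lower sites. The adjoining megabases had 7.01% (41 to 42 Mb, 485 sites) and 3.16% (43 to 44 Mb, 190 sites), and the other windows of chromosome 29 with at least 50 sites had 0 to 8.36%. By this share the stretch ranked 7 of 1437 windows of 1 Mb with at least 50 sites, whose median was 1.96%. This ranking rests on the measure for which the stretch was chosen. The count of 44 became 29 of 130 CpGs with strands averaged, 71 without fertile cow 3, and 10 of 33 once sites with both a cow under 10% and a cow over 80% were left out. Leaving out a cow can only keep or raise this count. The shares over all deposited sites were not computed for these alternatives.

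All 44 non-overlapping sites lay within 331 kb, from position 42155896 near SPINDOC to 42486434 in the promoter of ENSBTAG00000053576. That interval held 125 sites, so 35.2% of its sites did not overlap. The groups overlapped at the 17 sites before it and the 61 after it. The largest distances between neighbouring sites were 63.3, 63.0, 60.9, 57.3 and 53.8 kb. The gaps of 63.0 and 60.9 kb, which end at 42621737 and 42754753, are used below to divide the sites into a first run of 146, a middle run of 9 and a last run of 48, a choice made after the values were seen.

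**Figure D1:**
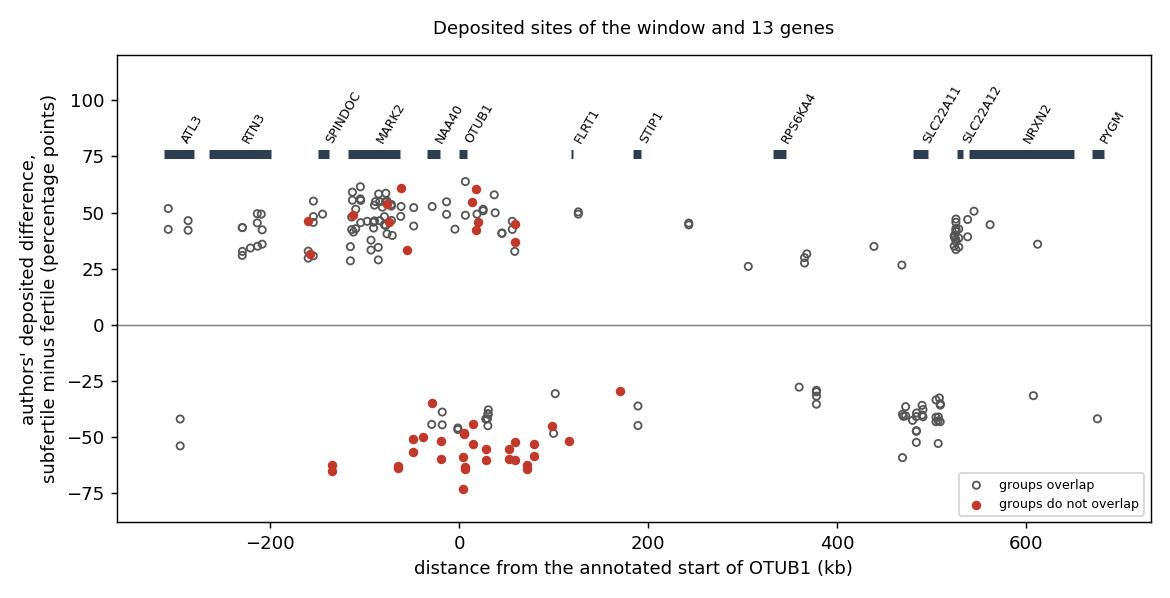
The authors' deposited difference at each of the 203 sites (vertical axis, percentage points, subfertile minus fertile) against distance from the annotated start of OTUB1 (horizontal axis, kb). Filled points are the 44 sites at which the groups did not overlap and open points the others. Bars at the top mark 13 annotated genes. The filled points lie from SPINDOC to just before STIP1, and the points farther to the right are all open.

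Introns held 112 of the sites (55.2%, against 35.5% over all deposited sites) and promoters 42 (20.7% against 5.54%). Intergenic sites were 47 (23.2% against 57.4%), 2 sites lay in a 3′ untranslated region and 0 in coding exons. The neighbouring megabases were similar in part. At 41 to 42 Mb introns held 39.8%, promoters 16.3% and intergenic sites 39.8%. At 43 to 44 Mb these shares were 45.8, 21.6 and 23.2%. The 42 promoter sites of the stretch were 32 higher and 10 lower. Their mean in the subfertile cows was 55.6% ± 13.6 (SD, n = 6) and in the fertile cows 32.8% ± 14.8 (SD, n = 6), with cows from 41.9 to 71.9% and from 21.8 to 56.8%. Fertile cows 2 and 3, at 45.7 and 56.8%, lay within the range of the subfertile cows.

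Levels were counted in 3 bands, chosen after the values were seen. Of the 2398 values of single cows, 27.8% were under 20% methylated, 46.8% were between 20 and 80% and 25.4% were over 80%. Listed at exactly 0 were 24.9% and at exactly 100 were 13.3%. Cows under 10% and cows over 80% stood side by side at 170 sites (83.7%), and at 69.9% of all deposited sites, 89.9% at 41 to 42 Mb and 77.9% at 43 to 44 Mb.

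The individual cows differed in how many of their values were in the middle band. Subfertile cow 3 had 93.0% of its values there, subfertile cow 5 had 86.5%, subfertile cow 4 had 76.1%, subfertile cow 1 had 69.5%, subfertile cow 6 had 55% and subfertile cow 2 had 11.9%. Fertile cows 2 and 3 had 61.3 and 59.0%, fertile cow 4 had 24.5%, fertile cows 5 and 6 both had 9.45% and fertile cow 1 had 7.92%. Over the whole deposited table the same cows were alike, from 35.9% in subfertile cow 6 to 43.9% in fertile cow 4. Subfertile cow 2 therefore stood apart from its group in this stretch, with 77 values in the low band, 100 in the high band and 24 between.

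**Figure D2:**
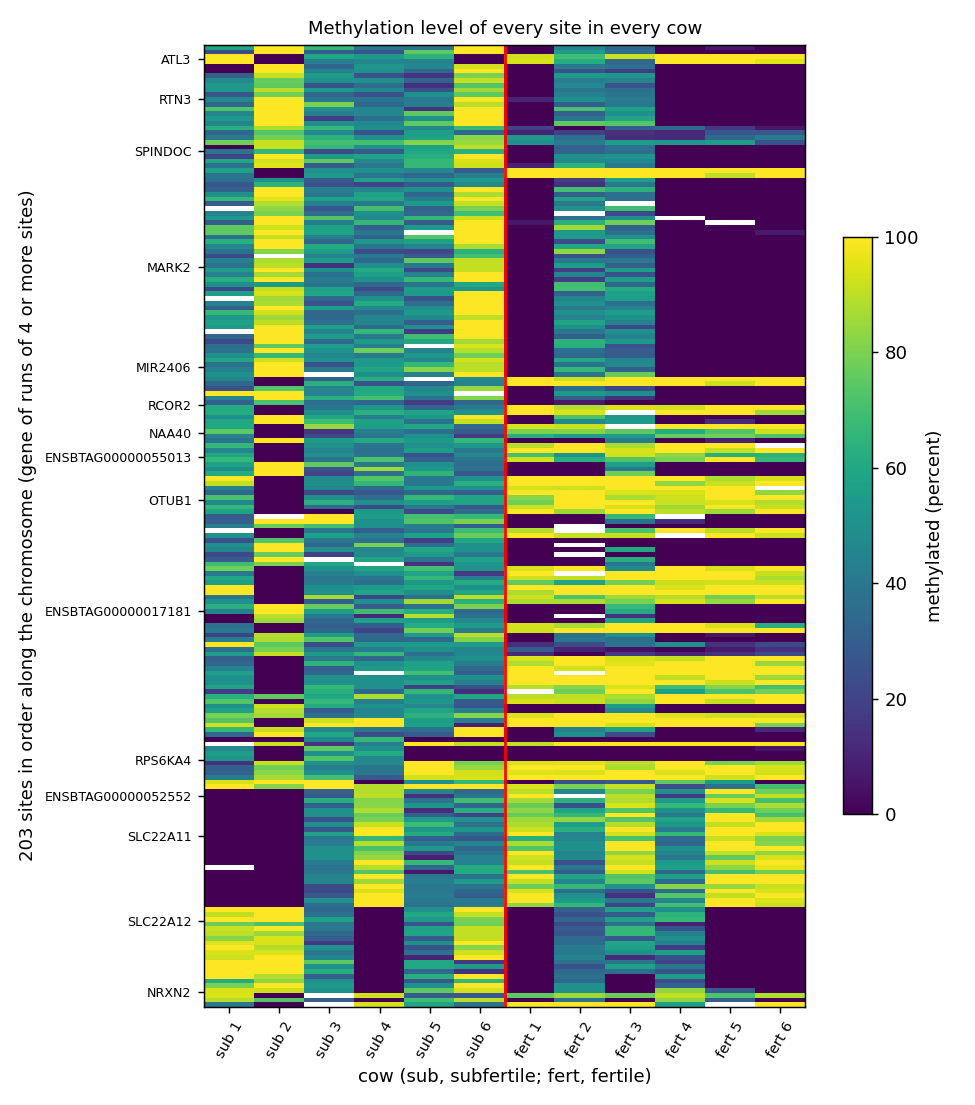
Percent methylated (colour) at each of the 203 sites (rows, in order along the chromosome) in each of the 12 cows (columns, subfertile left and fertile right of the red line). White cells are missing values, and row labels give the gene of runs of at least 4 sites. Blocks of neighbouring sites show the same cows at the dark end, in the middle and at the bright end of the scale, and the cow order of the blocks changes from RPS6KA4 on.

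Sites were grouped by which cows lay in the low, middle and high band, with sites lower in subfertile cows turned over so that both directions could share a pattern. Up to 2 cows were allowed to differ from the leading pattern, and the grouping was made after the values were seen. The grouping gave 4 patterns that took in 171 of the 203 sites, and 32 sites stayed outside. Cow means, spreads and overlap within a pattern follow in part from this grouping and are a description.

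The first pattern took in 87 sites, 79 higher and 8 lower, of which 36 matched it in every cow and 86 lay in the first run. At its 79 higher sites the means of subfertile cows 1 to 6 were 45.3, 93.4, 47.5, 45.7, 47.2 and 85.6% methylated. The means of fertile cows 1 to 6 were 0.321, 41.7, 45.3, 0.233, 0.425 and 0.231%. Subfertile cows 2 and 6 were high, the other subfertile cows and fertile cows 2 and 3 were in the middle, and fertile cows 1, 4, 5 and 6 were close to 0. The group means were 60.8% ± 22.4 (SD, n = 6) and 14.7% ± 22.3 (SD, n = 6) and the ranges met, since subfertile cow 1 and fertile cow 3 both had 45.3%. Over all 123 higher sites of the stretch, fertile cows 1, 4, 5 and 6 were all listed at 0 at 82.

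The second pattern took in 45 sites, 12 higher and 33 lower, of which 44 lay in the first run and 31 did not overlap between groups. Its leading pattern has every fertile cow in 1 outer band and every subfertile cow outside that band. The count of 31 therefore follows largely from the grouping. At the 33 lower sites of this pattern the means of subfertile cows 1 to 6 were 57.5, 4.90, 47.2, 49.3, 52.4 and 47.3%. The 6 fertile cows had means of 95.2, 96.5, 96.4, 95.3, 96.5 and 95.6%. All fertile cows were high, subfertile cow 2 was close to 0 and the other subfertile cows were in the middle. The group means were 43.1% ± 19.1 (SD, n = 6) and 95.9% ± 0.586 (SD, n = 6). The small fertile spread follows in part from the grouping, which put lower sites here for having the fertile cows in the high band. Over all 80 lower sites of the stretch the fertile cows had means of 78.2 to 92.9% (SD 6.48, n = 6). At the 12 higher sites of this pattern fertile cow 3 had a mean of 26.5%, and the other fertile cows had 1.79 to 4.88%.

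The third pattern took in 31 sites, 14 higher and 17 lower, all in the last run and none with non-overlapping groups. Its leading pattern has subfertile cow 4 in the outer band of the fertile side, so the overlap follows largely from the grouping. At the 14 higher sites the means of subfertile cows 1 to 6 were 92.8, 95.6, 46.7, 0, 49.1 and 75.3%, and those of fertile cows 1 to 6 were 0, 31.9, 40.8, 45.7, 3.90 and 0%. At the 17 lower sites subfertile cows 1 and 2 were at 0 and subfertile cow 4 at 93.0%, while the fertile cows ran from 52.6 to 95.7%. Subfertile cow 4 was therefore on the side of the fertile cows at both kinds of site. Of the 21 higher sites of the last run, 20 had subfertile cow 4 listed at 0, and of the 27 lower sites there 24 had both subfertile cows 1 and 2 listed at 0.

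The fourth pattern held 8 sites, from 42621737 past the end of PRDX5 to 42693890 past the end of RPS6KA4. At its 4 higher sites subfertile cows 1, 3 and 4 had means of 38.8, 61.1 and 56.1%, and the other subfertile cows were at 0. The fertile cows were at 0 except for 1.32% in fertile cow 6. At its 4 lower sites the same 3 subfertile cows had means of 34.5, 44.6 and 37.4%, and all other cows lay between 84.8 and 98.7%. Here the difference came from 3 subfertile cows, and the other 3 resembled the fertile group.

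**Figure D3:**
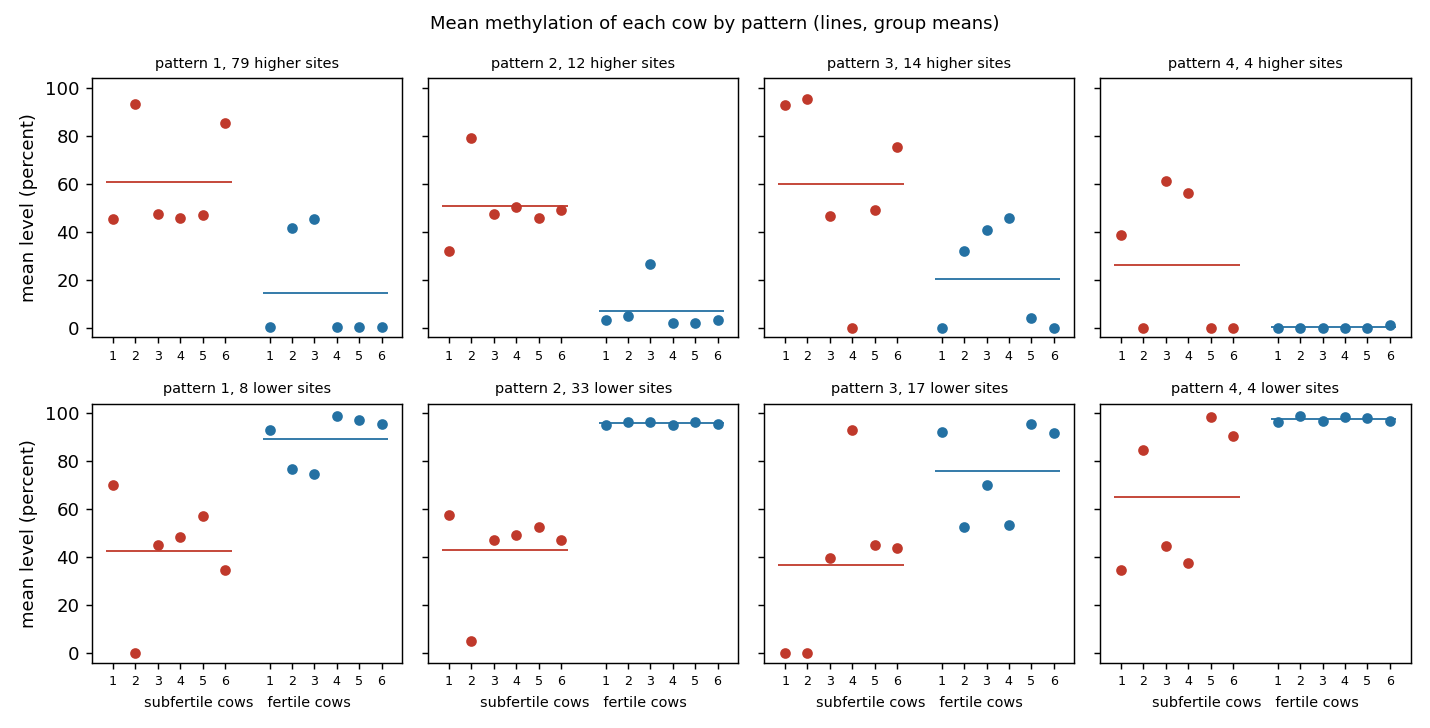
Mean percent methylated of each cow (points; red, subfertile cows 1 to 6; blue, fertile cows 1 to 6) over the sites of each of the 4 patterns, with sites higher in subfertile cows in the upper row and sites lower in the lower row. Horizontal lines are the group means. In the first pattern fertile cows 2 and 3 sit at 41.7 and 45.3% beside 4 subfertile cows, and in the second pattern's lower sites the 6 fertile cows sit between 95.2 and 96.5%.

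MARK2 held the most sites, 40 of the 203, of which 38 were higher and 2 lower. It codes for a serine/threonine kinase that sets cell polarity and phosphorylates microtubule-associated proteins. The gene runs from 42197785 to 42253634 on the plus strand, and its sites were 12 in promoters and 28 in introns. A promoter here is the surroundings of any annotated start. Apart from the CpG at 42200665, the promoter sites lie at 42218313 to 42239570, near starts annotated inside the gene. At the 38 higher sites the subfertile cows had means of 45.3, 89.6, 44.3, 46.2, 45.3 and 88.6%, and the fertile cows 0.164, 46.6, 44.6, 0, 0 and 0.188%. These are 59.9% ± 22.6 and 15.3% ± 23.5 (SD, n = 6 each), and fertile cows 2 and 3 lay among the lower subfertile cows. The 12 promoter sites gave nearly the same means, 58.9% ± 22.5 and 14.7% ± 22.7 (SD, n = 6 each). At 1 of them, position 42239570 on the minus strand, the subfertile cows ran from 38.5 to 100% and the fertile cows from 0 to 36.4%.

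The 2 lower sites of MARK2, both strands of the CpG at 42251431 in an intron, differed from the rest of the gene. Their means were 34.9% ± 17.8 in subfertile and 98.7% ± 1.99 in fertile cows (SD, n = 6 each), with subfertile cow 2 at 0 and the other subfertile cows between 33.3 and 47.4%. MIR2406, a microRNA gene that lies inside the span of MARK2, had 4 sites in its own promoter, all higher. Their means were 65.2% ± 24.6 and 16.8% ± 26.1 (SD, n = 6 each), with fertile cows 2 and 3 at 50.9 and 50% and the other 4 fertile cows at 0.

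On the side before MARK2, 2 genes that shape the endoplasmic reticulum held sites of the first pattern. ATL3 codes for an atlastin, a GTPase that fuses membranes of that network, and had 4 higher and 2 lower intron sites. Its higher sites had means of 58.7% ± 32.8 and 12.4% ± 18.8 and its lower sites 42.7% ± 37.9 and 86.6% ± 17.5 (SD, n = 6 each). RTN3 codes for a reticulon, which bends such membranes, and had 11 intron sites, all higher, with means of 58.8% ± 25.3 and 15.9% ± 24.3 (SD, n = 6 each). In both genes the groups overlapped at every site.

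SPINDOC, whose protein binds the histone reader SPIN1, was the nearest gene of 9 higher and 2 lower sites. The 9 higher sites had means of 41.1, 86.4, 55, 46.4, 61.7 and 78.6% in the subfertile and 15.8, 35.7, 35.9, 12.2, 14.8 and 11.1% in the fertile cows. The lowest subfertile cow lay above the highest fertile cow, and fertile cows 2 and 3 were again the highest of their group. Its 2 lower sites, both strands of the CpG at 42181565, had subfertile cow 2 at 0, the other subfertile cows between 36.0 and 51.9% and the fertile cows between 95.0 and 100%.

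RCOR2, a CoREST corepressor that works with a histone demethylase, had 6 higher and 2 lower sites. The site of the stretch that had the largest difference among higher non-overlapping ones lay in its 3′ untranslated region, at 42254307 on the minus strand. Subfertile cows 1 to 6 had 44.4, 100, 62.5, 70, 37.5 and 81.8% there, and fertile cows 1 to 6 had 0, 30, 14.3, 0, 0 and 0%. The 1 promoter site of RCOR2, at 42260822, ran from 18.2 to 71.4% in subfertile and from 0 to 6.67% in fertile cows. Unlike most of the stretch, it had no cow over 80%.

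NAA40, an acetyltransferase that acts on the amino terminus of histones, had 1 higher and 3 lower sites. At the higher site, 42287218, the subfertile cows ran from 38.5 to 100%. Fertile cow 3 had 41.7% there, fertile cow 5 had 9.09% and the other fertile cows 0. The 3 lower sites had means of 36.9% ± 21.2 and 78.4% ± 7.95 (SD, n = 6 each). ENSBTAG00000055013, which has no symbol in the deposited table, had 2 higher promoter sites (59.2% ± 21.6 and 7.96% ± 19.5) and 4 lower intergenic ones (39.3% ± 20.3 and 84.9% ± 5.82; SD, n = 6 each).

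OTUB1, a deubiquitinase, had 10 sites, 2 of them in its promoter and 8 in introns. The gene runs from 42315719 to 42323775 on the plus strand. Its 8 lower sites had means of 64.0, 0, 39.0, 45.4, 43.9 and 46.3% in subfertile cows 1 to 6 and of 93.2, 97.3, 97.0, 92.1, 94.8 and 94.0% in fertile cows 1 to 6. The groups were separate, at 39.8% ± 21.3 and 94.7% ± 2.07 (SD, n = 6 each), and 6 of the 8 sites did not overlap. At 42319470 on the minus strand the subfertile cows had 33.3, 0, 21.4, 27.3, 33.3 and 28.6% and the fertile cows 100, 100, 94.4, 93.8, 100 and 83.3%. This was the largest negative difference among the non-overlapping sites. The 2 promoter sites were the exception, since subfertile cow 1 had 95.5% there against 89.6 to 100% in the fertile cows. The CpG at 42322321 was higher on both strands, with subfertile cows from 29.7 to 100%, fertile cow 3 at 52.1%, fertile cow 4 at 12.5% and the other fertile cows at 0. COX8A, a subunit of cytochrome c oxidase, had 1 higher intergenic site next to OTUB1, where fertile cow 3 had 77.8% and the other fertile cows were at 0.

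ENSBTAG00000017181 held 39 intron sites and with 19 of them the most non-overlapping sites of any gene in the stretch. The deposited table gives it no symbol. In RefSeq's gene list for ARS-UCD2.0, a different build, MACROD1 lies between OTUB1 and FLRT1, and whether the 2 entries are the same gene was not established. Its 21 lower sites had means of 52.8, 3.57, 48.1, 44.9, 56.8 and 48.8% in subfertile cows 1 to 6 and of 93.3, 90.6, 91.7, 93.9, 94.3 and 92.1% in fertile cows 1 to 6. That is 42.5% ± 19.5 against 92.6% ± 1.42 (SD, n = 6 each), and 13 of the 21 sites did not overlap.

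The 18 higher sites of the same gene lay among the lower ones, from 42328995 to 42441839. Their means were 41.8, 88.1, 47.9, 47.6, 46.8 and 51.3% in subfertile cows and 3.03, 7.83, 33.9, 3.33, 2.33 and 3.26% in fertile cows. The groups were separate, and fertile cow 3 stood well above the other fertile cows. Over all 39 sites the opposite directions left the groups close, at 47.7% ± 3.28 and 54.0% ± 5.58 (SD, n = 6 each), with overlapping cows. At 42333894 on the minus strand the subfertile cows ran from 33.3 to 100% and the 5 fertile cows with a value were all at 0. At 42387857 the subfertile cows ran from 0 to 58.3% and the fertile cows from 92.9 to 100%.

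After 42413584, the last non-overlapping site of that gene, the non-overlapping sites ended with 1 promoter site of FLRT1 and 1 of ENSBTAG00000053576. The FLRT1 site lies between intron sites of ENSBTAG00000017181, which run on to 42441839. FLRT1, a leucine-rich adhesion protein of the cell surface, had 0 to 73.3% in subfertile and 83.3 to 100% in fertile cows at 42432283. At 42486434, which is 63 bases before the annotated start of ENSBTAG00000053576, the subfertile cows had 80, 86.7, 36.4, 47.1, 64.7 and 81.8% and the fertile cows 92.3 to 100%. Subfertile cow 2 was the highest of its group there. At 42 of the 44 non-overlapping sites it was instead the subfertile cow farthest from the fertile group. STIP1, a co-chaperone that links heat shock proteins, had 2 lower sites on which subfertile cow 4 reached 100%, and PPP1R14B, an inhibitor of protein phosphatase 1, had 2 higher sites of the first pattern (60.5% ± 30.4 and 15.5% ± 22.1; SD, n = 6 each).

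RPS6KA4, a stress- and mitogen-activated kinase, was the nearest gene of 8 of the 9 sites of the middle run. Its 3 higher sites had 51.7, 0, 65.9, 52.6, 0 and 0% in subfertile cows 1 to 6, 1.75% in fertile cow 6 and 0 in the other fertile cows. Its 5 lower sites had 29.5, 86.2, 45.6, 39.3, 98.7 and 88.6% in the subfertile cows and 94.5 to 98.8% in the fertile cows. At both kinds of site subfertile cows 1, 3 and 4 were in the middle band and the other subfertile cows at the fertile end. PRDX5, a peroxiredoxin that removes peroxides, was the nearest gene of the other, where subfertile cows 3 and 4 had 46.7 and 66.7% and every other cow was at 0.

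In the last run, 36 of 48 sites belonged to the urate and organic anion transporters SLC22A11 and SLC22A12, known for their work in the kidney. SLC22A12, which takes urate back from the filtrate, was assigned 26 sites, 12 in its promoter and 14 intergenic. The 12 promoter sites, all higher, had means of 93.5, 93.9, 45.0, 0, 41.5 and 74.2% in subfertile cows 1 to 6 and of 0, 33.6, 47.0, 35.4, 0 and 0% in fertile cows 1 to 6. Subfertile cow 4 was as low as the lowest fertile cows, so that the means of 58.0% ± 36.4 and 19.3% ± 21.7 (SD, n = 6 each) came with overlapping groups.

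The 10 lower intergenic sites before SLC22A12 had 0, 0, 36.8, 94.1, 38.9 and 44.5% in the subfertile and 90.8, 47.1, 58.1, 54.1, 92.1 and 94.7% in the fertile cows. They lie from 42820388 to 42824974 and were assigned by distance to annotated starts. The end of SLC22A11, at 42811743, is closer to them than the start of SLC22A12, at 42842883. SLC22A11, an organic anion transporter, had 10 sites, 9 in introns and 1 in the promoter, all lower. Their means were 0, 0, 44.1, 84.1, 42.4 and 38.5% in subfertile cows and 85.7, 55, 90.4, 46.2, 94.8 and 89.0% in fertile cows, or 34.9% ± 31.7 and 76.9% ± 20.7 (SD, n = 6 each). At these lower sites too, subfertile cow 4 lay with the fertile cows, and 0 of the 36 transporter sites were non-overlapping.

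ENSBTAG00000052552, without a symbol, had 6 promoter sites and 1 intergenic site next to these transporters. Its 5 lower sites had 34.5% ± 32.4 and 72.1% ± 18.8, and its 2 higher sites 81.8% ± 20.5 and 48.3% ± 8.20 (SD, n = 6 each). The fertile SD of 8.20 evens out 2 sites with unlike cow orders. Taken singly, 42754753 had 68.5% ± 39.2 and 30.5% ± 29.8, and 42784253 had 95.1% ± 7.89 and 66.0% ± 29.7 (SD, n = 6 each). NRXN2, a neurexin of synaptic membranes, had 3 higher and 1 lower intron sites, and the higher ones had subfertile cow 4 at 0 and fertile cow 4 at 65.8%. The last site of the stretch, at 42991226 in an intron of PYGM, the glycogen phosphorylase of muscle, had subfertile cows from 0 to 94.1% and fertile cows from 55.6 to 100%, with 5 cows measured in each group.

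At the edges, the first site inside, 42007892 in an intron of ATL3, had means of 67.2% ± 27.6 and 14.2% ± 20 (SD, n = 6 each). The nearest site outside on that side, at 41996402 in the promoter of PLA2G16, had 39.3% ± 38.0 and 81.4% ± 26.9 (SD, n = 6 each). On the other side the nearest site outside, at 43006165 in an intron of SF1, had 70.3% ± 30.5 and 96.6% ± 5.26 (SD, n = 6 each). None of these, nor the last site inside, had non-overlapping groups.

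The first pattern did not end at 42 Mb. With the same allowance of 2 cows, it matched 268 of 485 sites (55.3%) at 41 to 42 Mb and 42.9% of the sites of the stretch, but 1.05% at 43 to 44 Mb and 0.781% on the other chromosomes. The second pattern matched 24.3% at 41 to 42 Mb, 22.2% in the stretch, 6.32% at 43 to 44 Mb and 2.84% on the other chromosomes. The third matched 15.3% in the stretch, 0.206% before it, 3.16% after it and 0.186% on the other chromosomes. The fourth, in which fewer cows differ, matched 3.94% in the stretch and 3.66% on the other chromosomes. The patterns were built from the sites of the stretch, so that their shares there are no independent measure. The counting also differed. In the stretch a site was counted only for the earliest pattern that it matched, and elsewhere for every pattern that it matched. The shares of the later patterns in the stretch may therefore be too low beside those elsewhere.

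A measure that does not use the group difference is how far cows deviated together at different sites once the group means were taken off. The median absolute Pearson correlation over the 12 cows was 0.863 between the 2 strands of a CpG (73 pairs), 0.855 between other sites up to 1 kb apart, 0.776 from 1 to 10 kb, 0.623 from 10 to 100 kb and 0.368 from 100 kb to 1 Mb. Between sites of the stretch and sites of other chromosomes it was 0.219. Such a correlation falls with distance throughout. Other 1 Mb windows had medians of 0.897, 0.853, 0.780, 0.504 and 0.327 over the same 5 classes. The windows with a lower median than the stretch were 24.6, 50.9, 48.4, 71.6 and 65.2% in these classes. All these pairs share the same 12 libraries, neighbouring sites share reads, and no test was run on them.

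**Figure D4:**
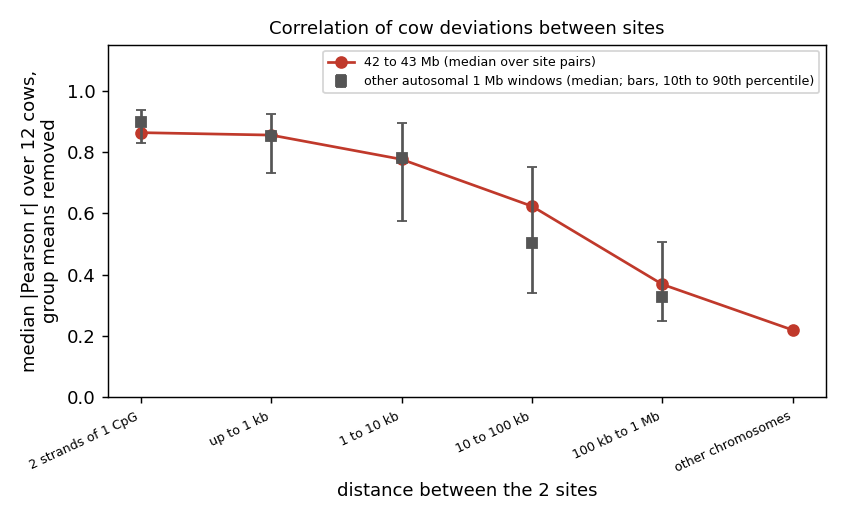
Median absolute correlation of cow deviations between 2 sites (vertical axis, 12 cows, group means removed) by the distance between the sites (horizontal axis). Circles are the pairs of the stretch; squares with bars are the median and the 10th to 90th percentile of other autosomal windows. The circles fall from 0.863 to 0.219, and at 10 to 100 kb the circle at 0.623 is inside the bar of the other windows.

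The strands of a CpG give a check of the single values, since each strand is read separately. Over 847 pairs of values in the stretch the median absolute difference between strands was 5.88 percentage points, against 5.71 over the whole table. It was 13.2 points where the pair was in the middle band and 0 where it was low, and 10% of pairs differed by 25 points or more. At all 73 CpGs both strands had the same direction between groups, as at all 47992 such pairs of the whole table. Both strands had passed the authors' limit on this difference, so that the shared direction is no separate check. Depth is unknown, because the deposited values hold no read numbers, so that no interval can be given for a single value.

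The spread between cows was also set against the difference by limma, fitted on the log ratio of methylated to unmethylated percent over all 216,990 sites. With adjusted p limited to 0.05 it called 0 sites of the table and 0 of the 203, where the smallest adjusted p was 0.0659. At an unadjusted p under 0.05 it called 185 of the 203, and 52.7% of all sites. The share called over the table was 0% after adjustment. On plain percent in place of the log ratio, limma called 12 of the 203 after adjustment, and 0.479% of all sites.

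In the same fit on means of clusters of at least 3 sites, each within 1 kb of the next, limma called 16 of the 29 clusters of the stretch, 14 higher and 2 lower, and 24.4% of all clusters. At an unadjusted p under 0.05 it called 24 of the 29, and 59.0% of all clusters. The smallest limma adjusted p was 0.0237, for 3 sites from 42333893 to 42334602 in ENSBTAG00000017181 with means of 53.0% ± 19.8 and 3.33% ± 8.16 (SD, n = 6 each). Of the 16 called clusters 5 had cow means that did not overlap between groups. Leaving out any 1 of the 12 cows lowered the share called over the whole table, to between 5.86 and 15.8%. The stretch had from 4 to 20 called clusters then, with 4 called clusters without subfertile cow 6 (5.86% of all clusters), 5 without fertile cow 1 (8.36%), 6 without fertile cow 4 (10.1%), 6 without fertile cow 6 (11.2%) and 9 without subfertile cow 2 (13.5%). With 1 point added to each percent in place of 5 it had 6, and 4.72% of all clusters were called. The authors chose the sites on these cows and the stretch was chosen on the same contrast, so these counts are read no further.

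Called clusters were found from RTN3 to ENSBTAG00000017181. They were 3 in RTN3, 2 at SPINDOC, 6 in MARK2, 1 at MIR2406, 1 at RCOR2 and 3 in ENSBTAG00000017181. Of the clusters of the last run 0 were called, and the one with the most sites of all, 8 at SLC22A12 from 42841370 to 42841560, had means of 57.5% ± 38.6 and 19.2% ± 21.6 with a limma adjusted p of 0.0816. The 5 sites from 42374625 to 42375113 in ENSBTAG00000017181 had nearly equal cluster means, 48.4% ± 2.18 and 48.3% ± 1.53 (SD, n = 6 each), since the mean joins 3 higher sites to the 2 lower ones that follow.

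Genes were also read by lists drawn from what is known of the homologous human region. Of 9 organic anion transporter genes, 2 held sites, with 16 higher and 20 lower and 0 non-overlapping. The list of kinases and phosphatases has 8 genes, of which MARK2, RPS6KA4, the phosphatase inhibitor PPP1R14B and STIP1, which is neither, held 52 sites. They were 43 higher and 9 lower, 5 were non-overlapping, and 40 were in MARK2. Of 7 genes of the neuronal and membrane list, 5 held 30 sites, 24 higher and 6 lower, with 5 non-overlapping. Of 12 leukocyte and platelet signalling genes, OTUB1 alone held sites, 2 higher and 8 lower, with 6 non-overlapping. Among the rest, 3 of 9 genes of mitochondria and energy metabolism held 1 site each, and 0 of 8 phospholipid acyltransferase genes held any. The shares of non-overlapping sites are to be read against the 21.7% of the stretch, which was chosen for this measure, as well as the 3.10% over the table.

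The mean over all 203 sites hides these opposite directions. It was 47.2, 56.0, 47.2, 48.2, 47.8 and 64.4% in subfertile cows 1 to 6 and 37.3, 52.0, 57.6, 36.9, 38.3 and 36.8% in fertile cows 1 to 6. The groups overlapped, at 51.8% ± 7.02 and 43.2% ± 9.23 (SD, n = 6 each), a difference of 8.65 points, or 18.2 without the sites that held both a cow under 10% and a cow over 80%. Those were 98 of the 123 higher and 72 of the 80 lower sites, so the sites left were mostly higher ones. A mean over both directions moves with this mix. Taken apart, the 123 higher sites had means of 58.5% ± 19.3 and 15.2% ± 17.3 and the 80 lower sites 41.6% ± 18.3 and 86.7% ± 6.48 (SD, n = 6 each). At 77 of the higher sites fertile cows 2 and 3 were both in the middle band, at 95 subfertile cow 2 was over 80%, and at 73 of the lower sites subfertile cow 2 was listed at 0.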

How the data were processed

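DNA methylation of whole blood was measured by enzymatic methyl sequencing in 12 cows, grouped by the labels. The members, gene lists and tests were chosen with earlier results of these data known. ChIPseeker 1.32.1, Bismark, DRAGEN and fastp 0.23.1 appear in the submitters' processing notes, with the build ARS-UCD1.2. The deposited table gives, per the file headers, the percent methylated per cytosine and cow, the authors' difference in percentage points, p-values and q-values. Not given in the sources used here are the weighting of the difference, the statistical tool and the read minimum. All deposited sites had an absolute difference over 25 points and a q-value under 0.01 in the authors' table. No read numbers are held, so depth and counting error are unknown, and limma was used here because a logistic model needs reads.

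Columns with the prefix F belong to cows labelled subfertile and R to cows labelled fertile. What the letters stand for is not stated, and every direction would turn if they were meant the other way.

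With limma 3.58.1 (R 4.3.3), log2 of (percent + 5)/(100 − percent + 5) was fitted on group over all sites and over cow means of clusters, with Benjamini-Hochberg adjustment, and tested on simulated data. A site belongs to the gene whose intron or untranslated region holds it, otherwise to the deposited nearest gene, which goes by distance to annotated starts. Genes named are the 15 with the most sites, up to 10 more by non-overlapping sites, and genes of the single sites with the largest differences. Any other gene was named with its values already known. The cows are separate animals; 22 gene identifiers were met, 18 with a symbol. Missing values (1.56%) were left out of means and comparisons.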

Additional observations from a re-analysis of the deposited data

Results flagged for a closer look

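Means of each cow over the sites of a pattern or gene, taken apart by direction, were searched for 1 cow far from the other 5 of its group. Chance flags about 1 in 20 groups where values follow a normal distribution. These levels often sit at 0 or 100%, so the count below cannot be set against that rate. Of 89 group values, 18 had such a cow, and the cows were few: 7 were subfertile cow 2, 6 fertile cow 3 and 3 fertile cow 6. Values of neighbouring genes in 1 cow share a stretch of chromosome and are not independent. Means over a pattern also follow in part from how its sites were grouped.

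Subfertile cow 2 had a mean of 4.90% at the lower sites of the second pattern, where the next subfertile cow had 47.2%. It was at 0 at the lower sites of MARK2, SPINDOC, RCOR2 and ENSBTAG00000055013, where the next subfertile cows had 33.3, 36.0, 45.0 and 40.5%. In ENSBTAG00000017181 it had 3.57% at the lower sites (next 44.9%) and 88.1% at the higher sites (next 51.3%). It lay farther from the fertile cows than its group in all 7.

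Fertile cow 3 had 26.5% at the higher sites of the second pattern, where the next fertile cow had 4.88%. At higher sites it had 33.9% in ENSBTAG00000017181 (next 7.83%), 52.1% in OTUB1 (next 12.5%), 47.8% at ENSBTAG00000055013 (all others 0), 41.7% in NAA40 (next 9.09%) and 77.8% at COX8A (all others 0). It lay on the side of the subfertile cows in all 6.

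The remaining 5 were small or rested on few sites. Fertile cow 6 had 1.32% at the higher sites of the fourth pattern and 1.75% at those of RPS6KA4, where the other fertile cows were at 0. It had 90% at STIP1, where the next had 97.1%. Fertile cow 5 had 95.0% at the lower sites of SPINDOC and fertile cow 4 had 55.6% at the PYGM site, where the other fertile cows with a value were at 100%.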

How the results depend on the processing

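The 44 non-overlapping sites became 29 with both strands averaged (130 CpGs) and 10 without sites that had a cow under 10% and a cow over 80%, which leaves 33 sites. With 1 cow left out they were 44 to 71, most without fertile cow 3, and leaving out a cow can only keep or raise this count. The mean difference of 8.65 points became 18.2 without the same low-and-high sites and ran from 6.14 to 11.5 with 1 cow left out. The difference at higher sites ran from 37.5 to 48.2 and at lower sites from -49.0 to -38.2. The 123 higher sites became 80 with strands averaged and 54 as clusters. They were 123 to 123 with 1 cow left out. The site fit called 12 sites on plain percent (0.479% of all sites) and 0 to 0 with 1 cow left out. The cluster fit called 16, but 6 with 1 point added in place of 5 (4.72% of all clusters, against 24.4%), 2 of 4 clusters of at least 5 sites (41.1% of all such), and 4 to 20 with 1 cow left out (5.86 to 15.8%). The correlation of 0.623 ran from 0.462 to 0.665 with 1 cow left out. Leaving out the low-and-high sites took away 98 of the 123 higher and 72 of the 80 lower sites, which changed the mix of directions in the mean difference. Why these values moved was not tested, beyond this mix and the fewer sites or cows in each. Over 27 directions of the named genes, 362 alternatives reversed 0 and moved 1 by more than the SD over cows. It was the lower sites of ENSBTAG00000017181 without the low-and-high sites (-29.1 points). That took away 20 of the 21 lower sites and left only 42417424, so the value is that of a single site. By over 1.5 times 2 changed, that one and the lower site of NRXN2 without subfertile cow 2 (-32.7 to -20.6). No paired analysis was made because the cows are separate animals and the labels pair none of them. Depth is unknown, and 6 cows per group limit the precision.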
